A study of Homo sapiens with 8 samples.

Results

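The comparison set the 4 libraries labelled SR, from sorafenib-resistant cells, against the 4 libraries labelled WT, from their parental cells, with HepG2 and Huh7 pooled. It used all 8 libraries of the series. Of 63241 genes listed, 15173 had an FPKM (a read level scaled to transcript length and to the mapped total of the library) of at least 1 in at least 2 libraries and were tested. Of these, 230 genes had all 4 SR values above all 4 WT values, which was 1.52% of the genes tested, and 329 genes had all 4 SR values below all 4 WT values, which was 2.17%. Together the 559 genes whose groups did not overlap made up 3.68% of the tested genes, and the account of functions concerns them. These genes were picked by the same values that are shown for them, so their differences are a description. Some genes separate by the order of values alone. The share expected from that was not computed, so the counts in either direction are not shown to exceed it. Shares of lists given below are to be set beside the 1.52% above and the 2.17% below.

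HepG2 and Huh7 are established human cell lines from liver tumours, and sorafenib is a multi-kinase inhibitor given in advanced hepatocellular carcinoma. Each line gave 2 WT and 2 SR libraries. The WT cells carry the treatment label control and the SR cells the treatment label sorafenib, and the resistant sublines were raised by stepwise exposure to rising drug concentrations, with no dose given for the sequenced cells. mRNA was enriched on oligo(dT) beads and every library carries the same batch label. Nothing says that the replicates came from separate cultures, so p-values here measure the spread between these libraries, which may be technical.

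The libraries did not sort by the labelled cell line, so a pattern seen under both line labels is not shown to hold in 2 separate lines. Whether labels or libraries had been exchanged was not tested. On log2(FPKM + 1) over the tested genes, 5 libraries (both of HepG2 WT, the first of HepG2 SR and the second of each Huh7 group) correlated with each other at r from 0.914 to 0.977. The first Huh7 libraries, WT and SR, correlated at 0.965 with each other and at 0.731 to 0.783 with those 5. HepG2 SR replicate 2 stood apart from all others, at 0.775 to 0.846. The 12 hepatocyte markers were above 0 in every library but varied widely. ALB lay between 12 and 4713 FPKM, TTR between 0.150 and 273 and FGB between 0.386 and 380. Biliary and progenitor markers also varied widely, with KRT19 from 0.179 to 760, SPP1 from 0.0236 to 823 and CD24 from 3.67 to 325. PTPRC, CD3E and MS4A1 of blood cells and TEK, KDR and EMCN of endothelium stayed below 0.1 FPKM. Other genes of the marker lists were present. LYZ ran from 44.2 to 1058, CD68 from 3.94 to 29.1 and PECAM1 from 0.517 to 4.28, and CD14 reached 6.27. Of the fibroblast and stellate markers, ACTA2 reached 57.6 in HepG2 WT replicate 1, while PDGFRA at 21.7 and COL1A2 at 8.28 were highest in HepG2 SR replicate 2, and DCN stayed at or under 0.0335. The part of these genes in the differences was not tested. In bulk RNA, fewer cells of a type and less RNA per cell cannot be told apart. For some genes and lists, results are therefore also given without the 3 libraries that stand apart. These are the second of HepG2 SR and the first of each Huh7 group, and leaving them out left 3 WT against 2 SR libraries. With those 5 alone, 9.27% of tested genes lay above and 13.9% below. Fewer values have to separate there, so more genes meet the rule by order alone and these shares are not a stronger result.

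No single gene passed an adjusted p of 0.05 in the limma fit over all tested genes, so the share called was 0% in each direction, and the smallest adjusted p was 0.626. At an unadjusted p under 0.05, 739 genes were counted (4.87% of those tested). With the study's thresholds of an unadjusted p under 0.05 and a log2 difference past 0.5, 354 genes were higher in SR (2.33%) and 373 were lower (2.46%). The study applied those thresholds with another test, edgeR, and within each line, so its counts and these are not alike. The standard error of a gene's log2 difference had a median of 0.34, against a median difference over all tested genes of -0.05. Values in every library are therefore given in place of calls. They are listed in the order HepG2 replicate 1, HepG2 replicate 2, Huh7 replicate 1 and Huh7 replicate 2, first WT and then SR, and differences are SR minus WT in mean log2(FPKM + 1).

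As background, a cell that commits to division loads the MCM helicase onto replication origins with the help of CDT1, converts it to an active form with CDC45, and raises the supply of nucleotides. E2F factors drive these S-phase genes, and mitotic kinases such as Aurora A act later, at the spindle. In the other direction, interferon-induced genes carry a promoter element called ISRE, and the ATF4 branch of the stress response acts on amino acid supply and on protein synthesis.

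Among the 46 functional lists, apart from those drawn up after the values were seen, DNA replication held the largest share of members above WT. Of 45 tested DNA replication genes, 8 had all SR values above all WT values (17.8%, against 1.52% of all tested genes) and 0 had them below. Among them were MCM3, CDC45, MCM5, CDT1, RRM2, PRIM1 and RFC4. In the list as a whole 44 of 45 differences were positive, with a median of 0.90. The summed FPKM of the list ran from 454 to 932 in WT and from 934 to 1637 in SR, so the highest WT sum and the lowest SR sum were nearly equal. Without the 3 libraries that stand apart the median was 0.80, and 41 differences were positive. Members of a list share regulators and cell cycle phase, so their counts are not independent observations.

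The promoters of 3 of the higher genes were picked, after the search, because the words searched occur in them. The E2F words searched were TTTGGCGC, TTTCGCGC, TTTCCCGC and TTTGCCGC on both strands. Sequences are from RefSeq on GRCh38.p14, run 5′ to 3′ on the strand of the gene from 250 bases before the annotated start to 10 bases after it, and have the matches in capitals. MCM3 is a subunit of the replicative helicase, and CDCA7 and HELLS work together in chromatin remodelling and DNA methylation.
MCM3, chr6:52284733-52284992, minus strand: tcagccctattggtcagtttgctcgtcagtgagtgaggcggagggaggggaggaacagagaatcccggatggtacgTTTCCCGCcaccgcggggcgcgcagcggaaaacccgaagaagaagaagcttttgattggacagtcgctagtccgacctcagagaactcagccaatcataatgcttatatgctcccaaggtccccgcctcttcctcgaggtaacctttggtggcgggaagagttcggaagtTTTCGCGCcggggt
CDCA7, chr2:173354622-173354881, plus strand: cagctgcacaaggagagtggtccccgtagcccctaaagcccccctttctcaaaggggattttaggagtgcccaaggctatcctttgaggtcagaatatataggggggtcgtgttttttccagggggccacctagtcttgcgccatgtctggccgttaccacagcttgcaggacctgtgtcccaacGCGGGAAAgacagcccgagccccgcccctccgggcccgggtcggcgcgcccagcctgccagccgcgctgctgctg
HELLS, chr10:94545538-94545797, plus strand: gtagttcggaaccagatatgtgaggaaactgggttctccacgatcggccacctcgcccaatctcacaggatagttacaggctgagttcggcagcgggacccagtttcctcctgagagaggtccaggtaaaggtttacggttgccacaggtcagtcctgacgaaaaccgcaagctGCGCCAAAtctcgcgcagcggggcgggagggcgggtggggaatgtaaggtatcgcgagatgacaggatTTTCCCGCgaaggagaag
MCM3 held matches that begin 174 and 4 bases before the start, CDCA7 held a match 65 bases before it, and HELLS held matches 76 and 8 bases before it. Promoters of 300 bases were matched by symbol to 10586 of the 15173 tested genes. An E2F word was present in 18 of 39 DNA replication promoters (46.2%), in 13 of 143 promoters of genes above WT (9.09%), in 8 of 260 promoters of genes below WT (3.08%) and in 564 of 10586 promoters of tested genes (5.33%). Over all 27305 promoters of the table the share was 3.33%. A match is a description of letters and not a measured binding site.

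MCM3 was listed at 16.4, 36.6, 32.0 and 18.1 FPKM in WT and at 88.3, 129, 84.8 and 69.0 in SR. The lowest SR value lay well above the highest WT value, and the log2 difference was 1.85 ± 0.32 (SE, n = 4 per group). MCM5, another subunit of the same helicase ring, had 6.99, 10.4, 7.93 and 4.39 FPKM in WT and 18.2, 38.9, 25.4 and 15 in SR. CDC45, which joins the ring to form the active helicase, had 3.21, 7.40, 5.22 and 1.52 in WT and 13.4, 25.9, 17.4 and 9.44 in SR. Both genes were lowest in Huh7 WT replicate 2 and highest in HepG2 SR replicate 2. CDT1, the licensing factor that loads MCM rings, had 4.23, 9.04, 5.41 and 2.10 FPKM in WT and 15.3, 16.2, 14.2 and 10.9 in SR. Without the 3 libraries that stand apart the differences of these genes, which the choice of members keeps positive, were 1.77 for MCM3, 1.15 for MCM5 and 1.46 for CDC45.

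Nucleotide supply and the clamp were in the same group. RRM2, the small subunit of ribonucleotide reductase, had 18.7, 29.5, 21.1 and 8.47 FPKM in WT and 48.0, 48.6, 54.2 and 30.7 in SR. PCLAF, a partner of the replication clamp PCNA (GENCODE release 29, GRCh38, chr15:64364311-64387687), had 8.67, 12.5, 9.31 and 4.61 in WT and 39.8, 38.2, 51.2 and 30.5 in SR. Its log2 difference was 2.11 ± 0.31, and its adjusted p in the limma fit was 0.626. CDCA7 had 6.65, 8.52, 8.71 and 6.82 in WT and 19.4, 23.6, 17.1 and 21.8 in SR, with little spread inside either group.

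Genes that package new DNA were next to those of replication. A list of 18 histone chaperones and replication-linked chromatin genes was drawn up after the values had been seen. In it 8 genes were above WT (44.4%) and 0 below: PTMA, NASP, HELLS, CHAF1A, HMGB1, TONSL, NCL and ANP32B. NASP, a chaperone of histone H3 and H4, had 18.0, 45.4, 33.7 and 13.4 FPKM in WT and 63.2, 76.3, 52.2 and 50.5 in SR. CHAF1A, the large subunit of chromatin assembly factor 1, had 4.29, 11.3, 8.74 and 3.26 in WT and 14.2, 20.1, 17.6 and 11.9 in SR. PTMA, which encodes prothymosin alpha, an acidic chromatin protein, had 171, 110, 93.6 and 195 in WT and 414, 639, 447 and 358 in SR. PTMA had a wide gap between the groups, whereas in NASP and CHAF1A the lowest SR value was close to the highest WT value. Of 25 tested replication-dependent histone genes only H2AC20 was above WT, at 0.264 to 1.52 FPKM in 7 libraries and 0 in Huh7 WT replicate 2, and 0 were below. Those transcripts mostly lack a poly(A) tail and are poorly captured by oligo(dT).

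MIR1244-2 stood among the most widely separated features, with 24.8, 17.2, 16.2 and 28.4 FPKM in WT and 52.3, 103, 82.3 and 68.4 in SR. Its hairpin (GRCh38.p14, chr5:118974586-118974670, plus strand) is 85 bases long and identical in 4 MIR1244 genes. The whole hairpin sequence was found inside 4 of the 12 annotated PTMA transcripts, so its value and those of PTMA and the PTMA pseudogenes PTMAP2, PTMAP4 and PTMAP9, all above WT, cannot be told apart as separate transcripts. The mature miRNA is shown with its seed, bases 2 to 8, in capitals to identify the shared stretch.
hsa-miR-1244: aAGUAGUUgguuuguaugagaugguu
The libraries were made from fragmented mRNA, so these values do not measure the mature miRNA.

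Mitotic genes had differences of a single sign with more overlap between single libraries. All 43 tested mitosis genes had a positive difference, with a median of 1.03, the highest of the 46 functional lists, but only AURKA, CCNA2, CENPF and CDC25C had all SR values above all WT values (9.30%). The summed FPKM of the list was 358, 967, 1245 and 228 in WT and 1234, 1573, 1522 and 984 in SR, and these ranges overlap. HepG2 WT replicate 2 was near the lowest SR sum and Huh7 WT replicate 1 was above it. HepG2 WT replicate 1 and Huh7 WT replicate 2 were far below. Without the 3 libraries that stand apart the median was 1.19, but that setting leaves out Huh7 WT replicate 1, the highest WT library. The CHR word TTTGAA, searched on both strands, was present in 26 of 37 matched promoters of the list (70.3%) and in 9.59% of promoters of tested genes. Among the 143 promoters of genes above WT it was present in 6.29%.

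AURKA encodes Aurora kinase A, which builds the spindle poles (GENCODE release 29, GRCh38, chr20:56369389-56392337). It had 10.2, 14.1, 19.7 and 16.8 FPKM in WT and 92.8, 50.5, 129 and 59.6 in SR. The lowest SR value was well above the highest WT value, and the SR mean was 83.1 ± 35.9 against 15.2 ± 4.03 in WT (SD, n = 4). The log2 difference was 2.32 ± 0.34, the largest among the non-overlapping genes, with an adjusted p of 0.626 in the limma fit. Without the 3 libraries that stand apart it was 2.39. TACC3, the spindle protein that Aurora A phosphorylates, had 12.1, 24.8, 22.1 and 4.63 FPKM in WT and 35.0, 77.4, 32.1 and 32.5 in SR. TROAP, a spindle-associated protein, had 5.75, 9.56, 12 and 2.10 in WT and 17.5, 32.7, 31.6 and 14.5 in SR. In both TACC3 and TROAP the lowest library was Huh7 WT replicate 2. CCNA2, the cyclin of S phase and mitotic entry, had 9.76, 17.9, 23.5 and 7.07 in WT and 32.6, 38.3, 37.6 and 24.6 in SR, with Huh7 SR replicate 2 close to Huh7 WT replicate 1.

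**Figure D1:**
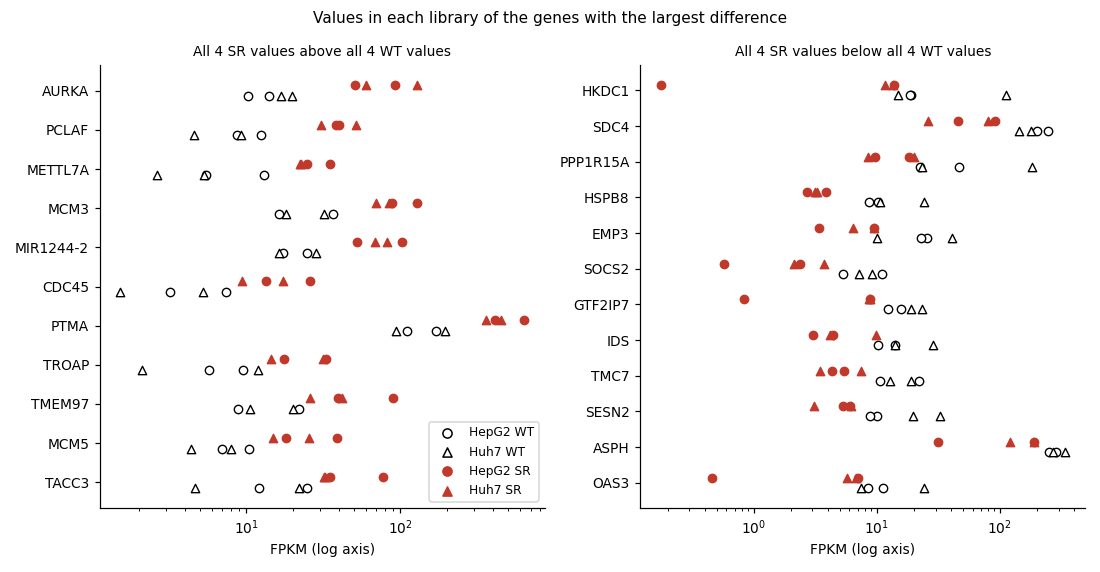
FPKM on a log axis in each of the 8 libraries for the genes shown among the 12 per direction with the largest log2 difference in non-overlapping genes with a mean FPKM of at least 5. Open symbols are WT, filled symbols SR, circles HepG2 and triangles Huh7, with 1 point per library. AURKA and PCLAF show wide gaps, whereas in HKDC1 and OAS3 the nearest values of the groups almost meet and HepG2 SR replicate 2 is far below the rest.

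Centromere and spindle assembly genes were also listed after the values had been seen. Of 20 CENP genes, 4 were above WT (CENPM, CENPF, CENPH and CENPW) and 0 below, and all 20 differences were positive. Of the 8 subunits of augmin, which nucleates microtubules inside the spindle, HAUS8, HAUS5 and HAUS1 were above WT (37.5%). CENPM had 5.11, 8.04, 6.59 and 3.17 FPKM in WT and 14.4, 18.6, 16.9 and 9.93 in SR. HAUS1 had 8.46, 14.4, 11.9 and 13.3 in WT and 18.0, 20.9, 23.9 and 14.7 in SR, so its lowest SR value was just past its highest WT value.

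Of 34 genes of homologous recombination and Fanconi anemia repair, FANCA, XRCC3 and BRIP1 were above WT (8.82%) and 0 below. The list median was 0.49. FANCA, part of the core complex of that pathway, had 6.31, 12.7, 9.97 and 6.15 FPKM in WT and 17.4, 22.2, 16.4 and 23.3 in SR. BRIP1, a helicase that works with BRCA1, stayed low, at 1.02 to 3.21 in WT and 3.57 to 5.19 in SR. FANCA overlaps ZNF276 and XRCC3 overlaps KLC1 on the opposite strand, and no strand setting was stated. The p53 target list went the other way without a member that met the rule: 25 of 26 differences were negative with a median of -0.81, yet 0 genes lay above and 0 below. Its median was -0.36 without the 3 libraries that stand apart.

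Sterol, nucleotide and sugar pathways each held members above WT. Of 27 cholesterol genes, TMEM97, EBP, ACAT2 and LBR were above WT (14.8%) and 0 below, with a list median of 0.37. TMEM97, the sigma-2 receptor, which regulates cholesterol transport, had 8.85, 22.1, 20.1 and 10.5 FPKM in WT and 39.5, 90.0, 41.7 and 25.9 in SR. EBP, a sterol isomerase, had 26.3, 40.8, 44.5 and 22.9 in WT and 85.4, 146, 107 and 45.7 in SR, so Huh7 SR replicate 2 nearly met Huh7 WT replicate 1. EBP overlapped between groups under at least 1 of the other scalings. LBR, a sterol reductase of the inner nuclear membrane, had 20.6, 16.0, 21.1 and 26.1 in WT and 39.4, 35.6, 47.5 and 36.5 in SR.

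Of 33 genes of one-carbon, serine and nucleotide synthesis, 4 were above WT (12.1%) and 0 below. RRM2, SHMT1 and PAICS were among those above. PAICS, an enzyme of purine synthesis, had 41.3, 55.2, 44.2 and 48.6 FPKM in WT and 68.8, 97.4, 67.6 and 70.0 in SR. Of 27 glycolysis genes, ALDOC, LDHA and ENO1 were above WT (11.1%) and 0 below. LDHA, which makes lactate from pyruvate, had 82.8, 141, 93.3 and 46.1 in WT and 196, 228, 172 and 231 in SR. The lowest SR value of LDHA was 172 against a highest WT value of 141, and ENO1 had 741 FPKM in its lowest SR library and 730 in its highest WT library.

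Of 24 liver transcription factors, CEBPA, HHEX and NR1H3 were above WT (12.5%, against 1.52% of all tested genes) and 0 below. Each of the 3 overlapped under at least 1 of the other scalings, and at a common total 1 member of the list was above WT. HHEX, a homeobox factor of liver development, had 18.4, 23, 29.3 and 14.2 FPKM in WT and 32.2, 53.1, 42.0 and 43.3 in SR. Secreted liver proteins had a median difference of 0.84 with 37 of 43 positive and 0 members outside the WT range in either direction. Their summed FPKM spread from 2896 to 10290 in WT and from 4121 to 14193 in SR. All 12 hepatocyte markers had positive differences, with a median of 0.80, and 0 met the rule. METTL7A, a methyltransferase-like protein of lipid droplets, had 13.1, 5.52, 5.33 and 2.64 in WT and 24.7, 35.0, 22.2 and 22.6 in SR, a log2 difference of 1.98 ± 0.40.

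Short, highly expressed housekeeping transcripts formed the next block. Of 85 cytosolic ribosomal protein genes, 8 were above WT (9.41%) and 0 below, among them RPS15, RPL23A, RPL7A, RPL38, RPL6, RPL29 and RPS14, and 81 of 85 differences were positive with a median of 0.38. RPL38 had 124, 137, 83.2 and 127 FPKM in WT and 170, 243, 170 and 164 in SR. Its SR values lay close together apart from HepG2 SR replicate 2. Ribosomal protein genes have many processed pseudogenes, and how reads were split between copies was not stated. The count for this list was 5 at a common total, 13 with median of ratios and 1 after quantile normalization.

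Of 78 nuclear-encoded respiratory chain subunits, NDUFC1, UQCRH, COX6C, UQCRQ and NDUFA7 were above WT (6.41%) and 70 differences were positive, with a median of 0.42. Without the 3 libraries that stand apart the median was 0.15, and 50 differences were positive. At a common total 2 members of the list were above WT. The summed FPKM was highest in HepG2 SR replicate 2 (8297) and Huh7 SR replicate 1 (7266), while Huh7 SR replicate 2 (4328) was below HepG2 WT replicate 1 (4910). UQCRH, the hinge subunit of complex III, had 123, 131, 98.3 and 92.8 FPKM in WT and 178, 219, 201 and 137 in SR. Of 43 core spliceosome genes, SRSF2, SNRPG, SRSF7 and SNRPA were above WT (9.30%). SNRNP200, the helicase of the U5 particle, was below (2.33%). SRSF2, which marks exons for splicing, had 69.5, 106, 93.7 and 53.2 in WT and 128, 169, 137 and 129 in SR. HNRNPA1, an RNA-binding protein whose copies HNRNPA1P10, HNRNPA1P7 and HNRNPA1L3 were also above WT, had 139, 316, 241 and 151 in WT and 563, 479, 396 and 441 in SR.

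Of the lists of NRF2 targets, ferroptosis and iron handling, TXN and GPX4 met the rule, both above WT. TXN made up 3.45% of the tested NRF2 targets and GPX4 2.56% of the tested ferroptosis genes. CAT, catalase, which is in none of these lists, also met it, at 31.9, 34.3, 30.5 and 18.8 FPKM in WT and 61.4, 54.8, 34.7 and 43.7 in SR, with the nearest values almost equal. TXN, thioredoxin, had 187, 169, 192 and 148 FPKM in WT and 331, 260, 248 and 257 in SR, and was the only 1 of 29 NRF2 targets outside the WT range. GPX4, the peroxidase that reduces lipid hydroperoxides, had 160, 197, 210 and 217 in WT and 238, 259, 243 and 227 in SR. The log2 difference of GPX4 was 0.31 ± 0.19, and its groups overlapped under at least 1 of the other scalings. Of 39 ferroptosis genes 20 differences were positive and 19 negative, with a median of 0.03. Of 26 iron handling genes 0 were above and 0 below WT. FTH1, the ferritin heavy chain, had 1545, 1507, 1388 and 1747 FPKM in WT and 1440, 3251, 1327 and 1043 in SR, and NCOA4, the ferritin receptor of autophagy, had 117, 101, 30.9 and 48.4 in WT and 113, 81.5, 35.0 and 94.3 in SR. Both overlapped between the groups.

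Receptor and growth factor lists held single members in each direction. Of 28 receptor tyrosine kinases and growth factors, FGFR4 was above WT and HBEGF below (3.57% each). Of 27 TGF-beta genes, TGFBR3 was above and TGFBR1 below (3.70% each). All tested genes had 1.52% above and 2.17% below, and single members do not describe these lists. FGFR4, the liver receptor for FGF19, had 81.7, 88.7, 86.5 and 35.0 FPKM in WT and 147, 111, 125 and 93.8 in SR. TGFBR3, a co-receptor of TGF-beta, was above WT at 4.78, 7.10, 7.17 and 2.94 against 18.8, 13.4, 12.6 and 20.1. TGFBR1, the signalling receptor of the same pathway, was below WT at 10.1, 9.83, 11.5 and 7.92 against 6.50, 2.90, 5.87 and 6.15. HBEGF, an EGF receptor ligand, had 5.84, 3.11, 2.32 and 7.39 in WT and 1.89, 1.10, 1.44 and 2.27 in SR, and ADAM17, the protease that sheds it, had 19.0, 26.0, 30.5 and 45.5 in WT and 18.6, 8.58, 14 and 14.7 in SR. Of 23 ERK targets and feedback genes 0 met the rule, although 19 had a negative difference.

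Of 32 genes of the interferon response and MHC class I, MX1 and OAS3 were below WT and 0 above (6.25%, against 2.17% of all tested genes), and 30 differences were negative with a median of -0.58. In a further list of 25 tested interferon-induced genes, drawn up after the values had been seen, 10 were below WT and 0 above: TRIM21, PARP14, GBP3, NMI, UBE2L6, DTX3L, IL15, GBP1, ERAP1 and PML. The summed FPKM of the first list was 567 to 1217 in WT and 487 to 765 in SR, which overlap. That of the second was 174 to 282 in WT and 97.4 to 150 in SR, which do not overlap. The second list was drawn up with the values known and 10 of its members meet the rule, so the separation of its sum is a description only. Without the 3 libraries that stand apart, the medians were -0.16 for the first list and -0.37 for the second.

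The promoters of OAS3, DTX3L and PARP14 are shown because they hold the ISRE word, GAAA and again GAAA with NN between them, searched on both strands and set in capitals, in the same window and build as above. OAS3 makes 2-5A, an activator of RNase L, PARP14 is a mono-ADP-ribosyltransferase, and DTX3L is a ubiquitin ligase that partners PARP9.
OAS3, chr12:112938224-112938483, plus strand: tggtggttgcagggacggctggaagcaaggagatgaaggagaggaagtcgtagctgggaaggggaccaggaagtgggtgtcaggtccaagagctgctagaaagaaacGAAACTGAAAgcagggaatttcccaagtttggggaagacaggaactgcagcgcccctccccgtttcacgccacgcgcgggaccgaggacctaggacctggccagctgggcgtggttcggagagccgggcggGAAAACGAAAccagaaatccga
DTX3L, chr3:122564088-122564347, plus strand: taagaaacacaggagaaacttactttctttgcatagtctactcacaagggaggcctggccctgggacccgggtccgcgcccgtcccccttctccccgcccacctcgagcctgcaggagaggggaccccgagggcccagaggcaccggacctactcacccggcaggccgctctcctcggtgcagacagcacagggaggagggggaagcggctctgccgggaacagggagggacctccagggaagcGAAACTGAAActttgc
PARP14, chr3:122680589-122680848, plus strand: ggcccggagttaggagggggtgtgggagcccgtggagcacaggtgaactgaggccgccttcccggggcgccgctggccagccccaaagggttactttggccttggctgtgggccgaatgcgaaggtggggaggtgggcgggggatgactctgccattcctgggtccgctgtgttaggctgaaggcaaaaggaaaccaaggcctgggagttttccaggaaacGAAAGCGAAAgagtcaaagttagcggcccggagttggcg
OAS3 held matches that begin 143 and 12 bases before the start, DTX3L held 1 that begins 6 bases before it, and PARP14 held 1 that begins 29 bases before it. The word was present in 17 of 24 matched promoters of the first interferon list (70.8%), in 13 of 260 promoters of genes below WT (5.0%), in 3 of 143 promoters of genes above WT (2.10%) and in 2.63% of promoters of tested genes. Its share over all promoters of the table was 3.65%.

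MX1, a dynamin-like antiviral GTPase, had 4.22, 3.24, 9.03 and 6.32 FPKM in WT and 2.85, 0.0916, 0.624 and 2.46 in SR. HepG2 SR replicate 2 and Huh7 SR replicate 1 were the lowest libraries, and the log2 difference of -1.53 became -0.58 without the 3 libraries that stand apart. OAS3 had 8.56, 11.3, 24.3 and 7.48 in WT and 7.0, 0.460, 6.73 and 5.75 in SR, with a difference of -1.34 that became -0.44. PARP14 had 8.12, 7.98, 7.76 and 10.1 in WT and 6.44, 2.15, 1.63 and 7.03 in SR. JAK1, the kinase that relays interferon signals, had 42.1, 44.5, 116 and 45.4 in WT and 24.7, 31.3, 38.8 and 21.0 in SR. UBE2L6, the conjugating enzyme for ISG15, had 21.9, 29.7, 22 and 24.6 in WT and 18.3, 14.8, 9.19 and 15.8 in SR.

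Stress response genes below WT came from the ATF4 and unfolded protein lists. Of 33 ATF4 genes, PPP1R15A, SESN2, SLC7A1 and VLDLR were below WT (12.1%) and 0 above, with a list median of -0.48. PPP1R15A, which directs the phosphatase that reverses eIF2 alpha phosphorylation, had 46.4, 22.4, 23.1 and 183 FPKM in WT and 18.2, 9.60, 8.45 and 20 in SR. The value of 183 in Huh7 WT replicate 2 stood far from the other WT libraries. SESN2, a leucine-sensing inhibitor of mTORC1, had 9.96, 8.88, 19.6 and 32.8 in WT and 6.09, 5.35, 6.18 and 3.10 in SR. SLC7A1, an arginine transporter, had 19.9, 24.9, 31.9 and 33.1 in WT and 19.1, 4.91, 14.1 and 13.8 in SR, so HepG2 SR replicate 1 almost met HepG2 WT replicate 1.

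Among 27 endoplasmic reticulum genes, SEL1L and ATF6 were below WT (7.41%) and XBP1 above (3.70%). ATF6, a membrane-bound sensor of unfolded proteins, had 8.75, 8.40, 12.5 and 17.7 FPKM in WT and 7.55, 4.58, 7.60 and 7.22 in SR. XBP1, the factor activated by IRE1, had 71.9, 101, 100.0 and 123 in WT and 176, 153, 132 and 135 in SR. HSPB8, a small heat shock protein of chaperone-assisted autophagy, had 8.58, 10.2, 10.7 and 24.4 in WT and 2.69, 3.90, 3.29 and 3.14 in SR. Its log2 difference was -1.66 ± 0.33, and its separation was the widest of the genes below WT with a mean FPKM of at least 5.

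Adhesion, junction and cytoskeleton genes were the next group below WT. Of 36 epithelial and mesenchymal genes, ITGA3, KRT7, OCLN and TJP1 were below and 0 above (11.1%). ITGA3, an integrin that binds laminin, had 5.98, 9.84, 3.43 and 2.49 FPKM in WT and 0.763, 0.408, 1.70 and 1.43 in SR. OCLN, occludin of tight junctions, had 5.73, 6.28, 5.46 and 12.4 in WT and 3.78, 1.86, 3.45 and 3.94 in SR, and TJP1, its scaffold, had 8.45, 7.5, 14.8 and 9.32 in WT and 5.45, 4.83, 6.36 and 5.40 in SR. Of the 36 differences 29 were negative, with a median of -0.23.

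SDC4, a heparan sulfate proteoglycan of focal adhesions (GENCODE release 29, GRCh38, chr20:45325288-45348424), had 202, 247, 142 and 179 FPKM in WT and 90.8, 46.1, 26.1 and 79.7 in SR. Its log2 difference was -1.77 ± 0.40, and -1.28 without the 3 libraries that stand apart. GPRC5A, an orphan receptor, had 4.83, 2.72, 3.15 and 5.40 in WT and 0.513, 0.260, 0.768 and 0.941 in SR, and was the gene below WT with the smallest adjusted p in the limma fit, 0.697. Of 23 YAP and TEAD targets, PTPN14 and AMOTL2 were below WT (8.70%). AMOTL2, an angiomotin that holds YAP outside the nucleus, had 25.6, 14.9, 15.3 and 11.3 in WT and 10.5, 6.29, 7.72 and 6.96 in SR. CDC42BPB, a kinase acting on myosin downstream of CDC42, had the smallest spread among these, at 34.8, 30.9, 31.0 and 31.0 against 18.2, 15.4, 21.8 and 17.9.

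Single genes outside these lists follow. HKDC1, a hexokinase-related enzyme, had the largest negative difference, -1.94 ± 0.93, from 18.8, 18.7, 14.9 and 113 FPKM in WT and 13.9, 0.175, 13.6 and 11.7 in SR. That difference rested on a high value in Huh7 WT replicate 2 and a low value in HepG2 SR replicate 2, with the other 6 libraries between 11.7 and 18.8. SOCS2, an inhibitor of cytokine and growth hormone signalling, had 11, 5.33, 9.12 and 7.19 in WT and 2.38, 0.569, 3.74 and 2.12 in SR. ASPH, an aspartyl hydroxylase, had 287, 252, 338 and 270 in WT and 189, 31.7, 122 and 189 in SR, and its difference of -1.38 became -0.51 without the 3 libraries that stand apart. CBL, a ubiquitin ligase for receptor tyrosine kinases, had 11.7, 9.36, 13.7 and 12.5 in WT and 6.61, 3.78, 8.04 and 6.25 in SR.

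Further genes below WT have transport or membrane roles. SLC41A2, a magnesium transporter, had 7.26, 8.07, 10.8 and 9.09 in WT and 4.43, 1.80, 4.52 and 4.95 in SR. HepG2 SR replicate 2 was the lowest, and the other SR values lay within a narrow range. TMC7, a transmembrane channel-like protein, had 22, 10.6, 12.9 and 19.1 in WT and 5.42, 4.29, 3.43 and 7.44 in SR. EMP3, a tetraspan membrane protein, had 25.8, 22.8, 10.1 and 40.7 in WT and 9.44, 3.42, 6.41 and 9.57 in SR. IDS, a lysosomal sulfatase, had 14, 10.3, 28.4 and 14.1 in WT and 4.41, 3.01, 9.88 and 4.13 in SR. EMP3 and IDS were separated only narrowly at the nearest values, and EMP3 overlapped under at least 1 of the other scalings. CDC37L1, a co-chaperone of HSP90, was even within the groups, at 7.87, 8.62, 7.60 and 8.25 against 4.79, 4.98, 3.84 and 5.14. GTF2IP7, a pseudogene that may share reads with GTF2I copies, had 15.8, 12.3, 18.8 and 23.2 in WT and 8.76, 0.832, 8.60 and 8.82 in SR.

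Membrane traffic genes below WT were drawn together after the values had been seen. Of 32 syntaxins, VAMP proteins and partners, STX1A, YKT6, VAMP2, STXBP2 and STX12 were below (15.6%) and 0 above. Of 9 exocyst subunits, which tether vesicles at the plasma membrane, EXOC2, EXOC1 and EXOC6B were below (33.3%). Of 51 RAB GTPases, RAB3B and RAB22A were below (3.92%, against 2.17% of all tested genes) and RAB3A above (1.96%, against 1.52%). The RAB shares are thus near those of all tested genes. YKT6, a SNARE of Golgi and autophagosome fusion, had 39.1, 36.0, 46.8 and 59.2 FPKM in WT and 27.3, 25.9, 35.5 and 15.7 in SR. Of 42 genes of vesicle coats and secretion fixed for the comparison, SEC24C alone was below WT (2.38%). SEC24C had 38.3 to 39.9 FPKM in WT and 21.9 to 34.4 in SR. The sets of the traffic genes were chosen because members had met the rule and count as description.

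**Figure D2:**
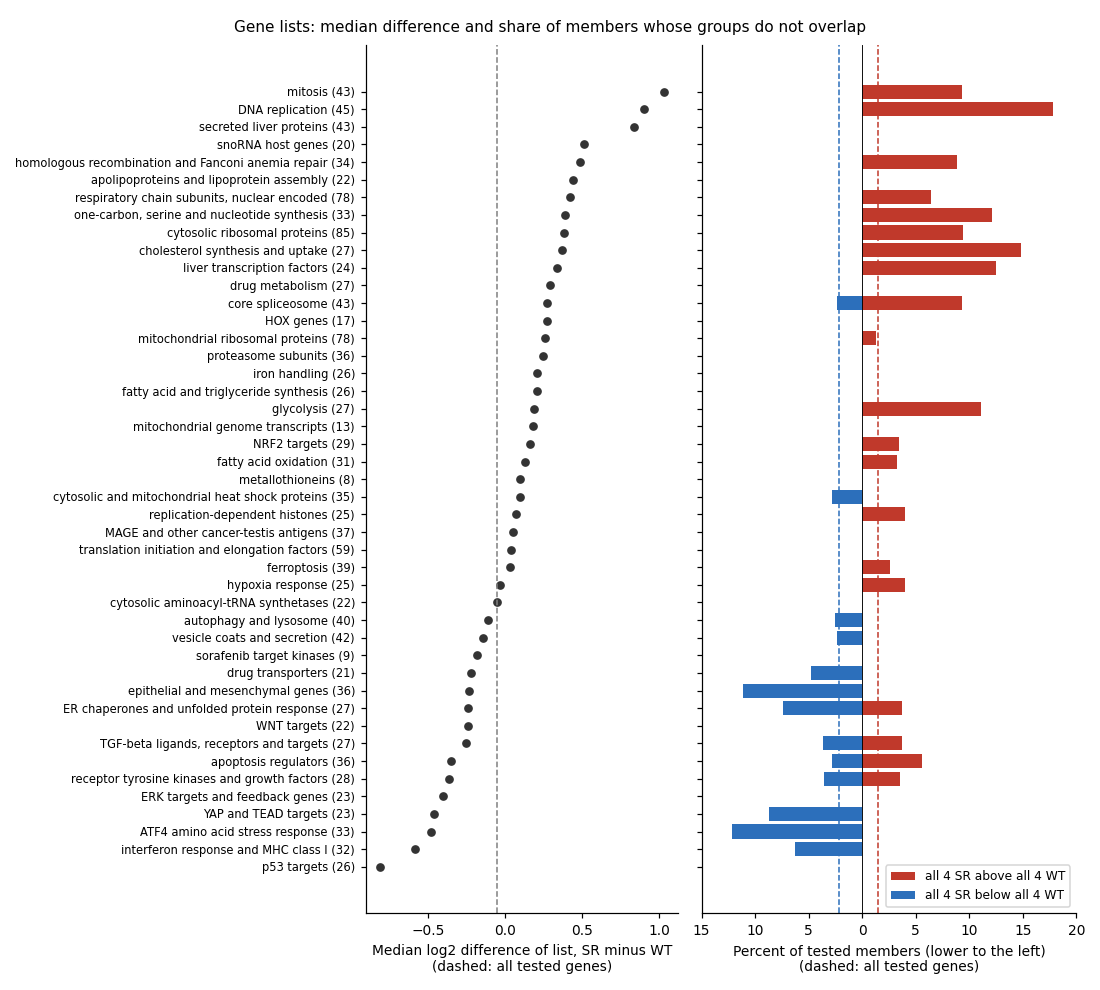
For each functional gene list (number of tested members in brackets), the left panel gives the median log2 difference, SR minus WT, and the right panel the percent of tested members with all 4 SR values above (red) or below (blue) all 4 WT values. Dashed lines mark all tested genes, at -0.05, 1.52% and 2.17%. DNA replication has the highest share above WT (17.8%) and ATF4 genes the highest share below (12.1%).

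Lists fixed for the comparison that held 0 members in either direction also included aminoacyl-tRNA synthetases (22 tested), sorafenib target kinases (9), fatty acid and triglyceride synthesis (26), apolipoproteins (22), drug metabolism (27), mitochondrial genome transcripts (13), proteasome subunits (36), translation factors (59), snoRNA host genes (20), WNT targets (22), metallothioneins (8), cancer-testis antigens (37) and HOX genes (17). Of 21 drug transporters ABCC5 was below WT (4.76%), at 15.5 to 24.5 FPKM against 11 to 15 in SR. Further lists with 1 member above WT were fatty acid oxidation (HADH, 31 tested), hypoxia (BNIP3, 25 tested) and mitochondrial ribosomal proteins (MRPL23, 78 tested). Autophagy and lysosome (40 tested) had ATG16L1 below. The share above was 1.28% for mitochondrial ribosomal proteins, under the 1.52% of all tested genes, and 3.23% for fatty acid oxidation. For autophagy and lysosome 2.50% were below, near the 2.17% of all tested genes. Single members do not describe these lists. Of 36 apoptosis regulators BNIP3 and CASP2 were above (5.56%) and BIRC2 below (2.78%). The study had picked 6 genes that it found changed both in these resistant cells and in a second data set. Their choice thus drew partly on these same cells. Of the 6, AURKA was above WT, and DUSP5, LIPH, MYOF, RND3 and GRB10 overlapped between the groups. GRB10 had 13.3, 10.6, 9.60 and 15.4 in WT and 3.61, 14.1, 4.11 and 3.77 in SR, where HepG2 SR replicate 2 alone lay inside the WT range.

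The rule is sharp at its edge. Just inside it above WT, ANP32B had 77.4 FPKM in its lowest SR library against 77.3 in its highest WT library, and ENO3 had 26.0 in both at the printed precision. Just outside it, RPL24 and NDUFB6 had positive log2 differences of 0.79 and 0.64. Below WT, BIRC2 had 29.7 in both nearest libraries and KIFBP had 14.8 in both, while TSC2 and MORC3 were just outside with differences of -0.33 and -0.50. When the nearest SR and WT values had to differ at least 1.5 times, 19 genes remained above WT and 12 below.

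**Figure D3:**
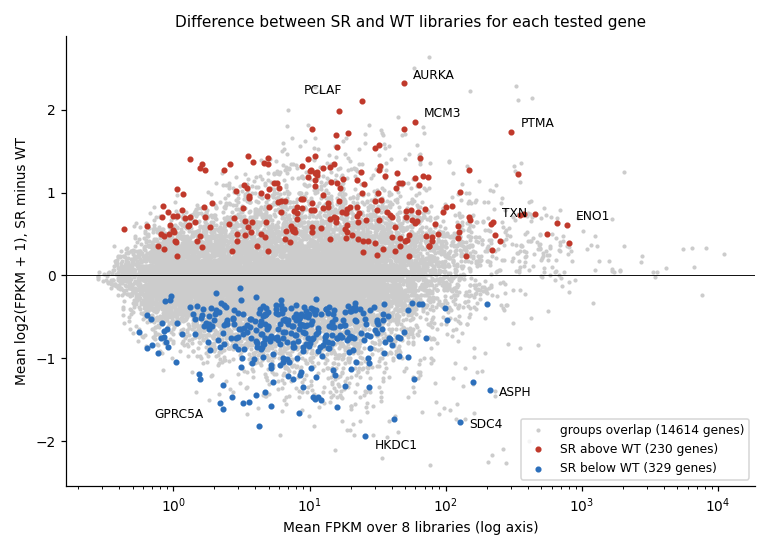
Log2 difference, SR minus WT, against mean FPKM over 8 libraries (log axis) for each of the 15173 tested genes, with the 230 genes above WT in red, the 329 genes below WT in blue and the others in grey. Coloured points occur over the whole range of levels, and several grey points have differences as large as the coloured ones.

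The genes above and below WT differed in transcript length. Over annotated exons the median length was 3025 bases for the genes above WT, 6216 for those below and 4423 for all tested genes. Of the genes above WT 73.0% were protein-coding and 9.13% were processed pseudogenes, against 92.4% and 1.22% of the genes below and 81.1% and 3.26% of all tested genes. In the shortest of 10 length classes of genes 3.0% were above and 0.681% below WT, and in the longest class 0.545% were above and 5.04% below. The median log2 difference went from 0.03 in the shortest class to -0.19 in the longest.

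The length trend was present in the libraries themselves. Each library was compared with the mean of all 8 for the median gene of the longest and the shortest class. The longest minus the shortest was 0.13, -0.01, 0.30 and 0.20 in WT and -0.05, -0.09, -0.06 and -0.13 in SR, so the groups did not overlap. When each library was centred within 20 bins of exon length, an alternative chosen after seeing the data, 296 genes were above WT and 241 below. Of the genes counted as deposited, 175 of 230 and 192 of 329 were among them. DNA replication then had 10 members above WT, mitosis 8, the second interferon list 9 below, and the RAB GTPases 0 in either direction. Of the lists fixed for the comparison, the first interferon list had 1 member below WT in place of 2, and ATF4 genes 3 in place of 4. YAP and TEAD targets and endoplasmic reticulum genes each had 1 in place of 2. Epithelial and mesenchymal genes kept 4, and vesicle coats and autophagy each had 0 in place of 1. Whether RNA quality or library preparation differed between the groups was not tested.

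**Figure D4:**
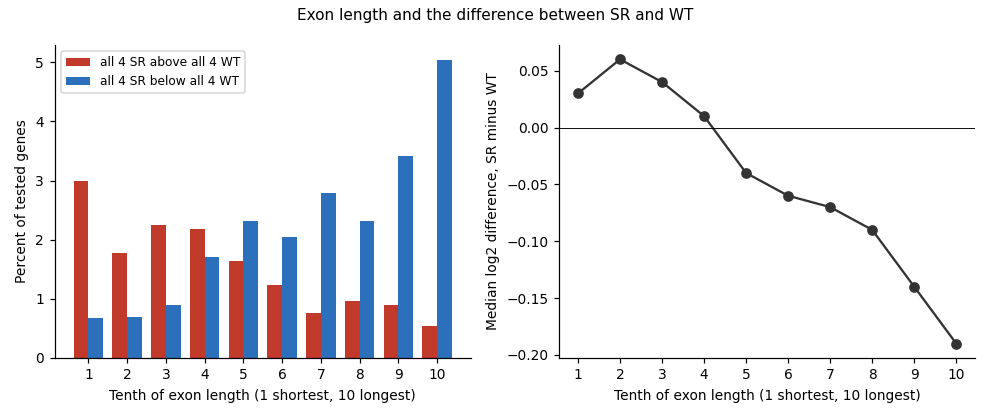
Left, percent of tested genes with all 4 SR values above (red) or below (blue) all 4 WT values in each of 10 classes of exon length. Right, median log2 difference, SR minus WT, of all tested genes in the same classes. The share above WT is 3.0% in the shortest class and 0.545% in the longest, and the share below goes from 0.681% to 5.04%.

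The balance of higher to lower genes depended on how libraries were scaled. The FPKM values of a library summed to 384792, 396118, 385498 and 403905 in WT and to 411763, 429111, 415772 and 424869 in SR, so that every SR sum was above every WT sum. As deposited, 41.1% of the 559 non-overlapping genes were above WT. At a common total (TPM) 142 genes were above and 514 below, so 21.6% were above. With median of ratios the counts were 278 and 291, and after quantile normalization 276 and 285. Of the genes above WT as deposited 131 of 230 were above under all 4 scalings, and of the genes below 234 of 329 were below. AURKA, PCLAF, METTL7A, MCM3, CDC45, PTMA, MCM5, TMEM97, SDC4, HSPB8, SESN2 and MX1 met the rule under all 4. Besides the genes flagged above, CCNA2, RRM2, OAS3, FGFR4, HBEGF, ALDOC, ENO1, BNIP3, CASP2 and XBP1 overlapped under at least 1 of the other scalings. The same held for BIRC2, ABCC5, ATG16L1, UQCRH, NDUFC1, COX6C, RPS15, RPL23A, RPL7A, SNRPG, SRSF7, ANP32B, ENO3 and KIFBP.

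**Figure D5:**
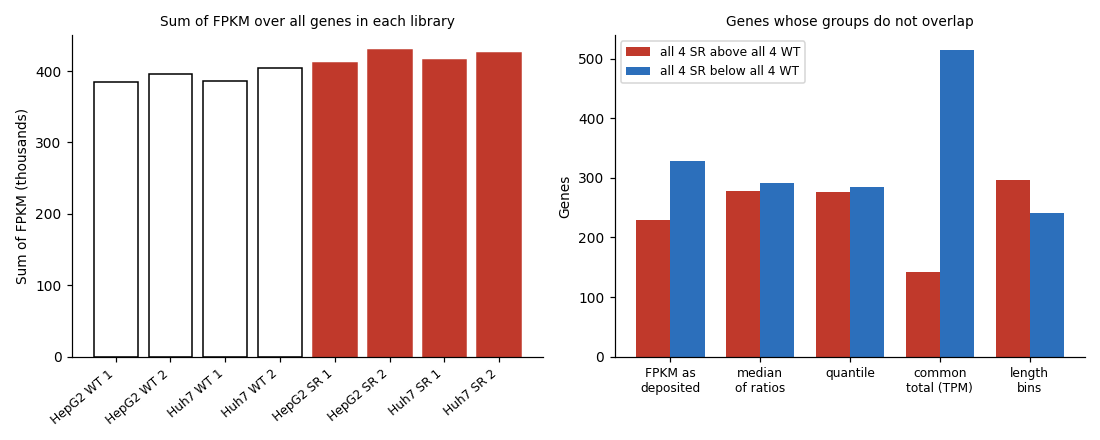
Left, sum of FPKM over all genes in each library (axis scaled down as labelled), WT open and SR filled. Right, number of genes with all 4 SR values above (red) or below (blue) all 4 WT values under each scaling and after centring within length bins. All SR sums are above all WT sums, and the common total gives 142 genes above and 514 below against 230 and 329 as deposited.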

How the data were processed

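Polyadenylated RNA from HepG2 and Huh7 cells was sequenced in 8 libraries. The authors deposited gene values in FPKM, which are already divided by transcript length and library total. Read counts could not be recovered from the low values, so the depth behind a value is not known here. Per the submitters' processing notes reads were handled with fastp 0.20.0 and GRCh38 was named as the build, and the aligner, counting tool and strand setting are not given in the sources used here. The scaling in FPKM uses the library total, so a few abundant transcripts can shift all other values.

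Groups followed the labels. Ensembl identifiers were paired with symbols for 62666 of 63241 genes, and 58228 were found in GENCODE release 29, which gave positions, biotypes and exon lengths. The test covered genes that reached 1 FPKM in 2 or more libraries. Differences were fitted with limma 3.58.1 in R 4.3.3 on log2(FPKM + 1) with 2 group means and a mean-variance trend, and p-values were adjusted by Benjamini-Hochberg over all tested genes. Fold changes on this scale understate those of low genes. Genes named are, per direction, the 12 with the largest difference and the 8 with the widest separation. Both sets came from non-overlapping genes with a mean FPKM of at least 5. Also named are the 5 with the smallest adjusted p and up to 4 members per list by size of difference. The 6 genes the study had selected were added, with 2 just inside and 2 just outside the rule per direction. Others were chosen after their values were seen, namely CAT, CDT1, FTH1, NCOA4, ADAM17, JAK1, CBL, NASP, CHAF1A, HNRNPA1, PARP14, UBE2L6, CENPM, HAUS1, YKT6 and all genes listed by name that the rule does not give. A few genes that the rule names are not reported here. Separation is the log2 ratio of the nearest values of the groups, with 1 added. The members and the 46 functional and 5 marker lists were chosen with earlier results of these data known, and 7 further lists after the values were seen. Alternatives were other scalings, filters and pseudocounts, a term for cell line, a replicate block and leaving out libraries. Python 3.11.15 with pandas 2.3.3 and matplotlib 3.10.9 was used for tables and figures.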

Additional observations from a re-analysis of the deposited data

Results flagged for a closer look

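Of 204 groups of 4 libraries looked at, 23 had a library far from the other 3 by a gap test. For independent normal values chance alone gives about 1 in 20. The test used untransformed FPKM, mostly of genes picked by these same values, so the count is not to be read against that rate. Values are FPKM of the library named, against the range of the other 3 libraries of its group. HepG2 SR replicate 2 stood above its group for TACC3 (77.4 against 32.1 to 35.0), ALDOC (39.2 against 10.1 to 14.8), NDUFC1 (36.4 against 25.5 to 26.9), RPL38 (243 against 164 to 170), PAICS (97.4 against 67.6 to 70.0), DUSP5 (131 against 1.32 to 6.28), RND3 (8.82 against 0.214 to 0.871) and GRB10 (14.1 against 3.61 to 4.11). HepG2 SR replicate 2 stood below its group for HKDC1 (0.175 against 11.7 to 13.9), GTF2IP7 (0.832 against 8.60 to 8.82), SLC41A2 (1.80 against 4.43 to 4.95) and ATF6 (4.58 against 7.22 to 7.60). Huh7 WT replicate 2 stood above its group for HKDC1 (113 against 14.9 to 18.8), PPP1R15A (183 against 22.4 to 46.4), HSPB8 (24.4 against 8.58 to 10.7) and OCLN (12.4 against 5.46 to 6.28). HepG2 WT replicate 1 stood above its group for CDC42BPB (34.8 against 30.9 to 31.0). Huh7 WT replicate 2 stood below its group for FGFR4 (35.0 against 81.7 to 88.7) and MRPL23 (7.48 against 15.8 to 17.3). HepG2 SR replicate 1 stood above its group for TXN (331 against 248 to 260). Huh7 SR replicate 2 stood below its group for SEC24C (21.9 against 33.9 to 34.4). Huh7 WT replicate 1 stood above its group for LIPH (11 against 0.648 to 1.36). HepG2 WT replicate 2 had 38276 genes above 0, against 27338 to 28681 in the other WT libraries.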

How the results depend on the processing

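Counts of genes at an adjusted p under 0.05 were 0 in both directions under every alternative, with a smallest adjusted p (limma) between 0.400 and 1.0 and 418 to 1606 genes at an unadjusted p under 0.05. The non-overlap counts of 230 above and 329 below WT became 142 and 514 at a common total (TPM), 350 and 552 without a filter, 19 and 12 with the nearest values 1.5 times apart, and 1407 and 2108 without the 3 libraries that stand apart, where fewer values have to separate. With a mean FPKM of at least 5, 207 genes were below WT. Leaving out each library gave from 310 to 574 above and from 448 to 900 below, which can only raise the counts. The most were reached without Huh7 WT replicate 1 and the fewest without HepG2 SR replicate 2. At the study's thresholds (354 and 373), the common total gave 227 and 571. Leaving out each library gave from 206 to 471 higher and from 207 to 668 lower. The fewest were reached without HepG2 SR replicate 2, and 231 were higher without HepG2 WT replicate 1, 668 lower without Huh7 WT replicate 1 and 247 lower without Huh7 WT replicate 2. Pairs with the same line and replicate number deviated from their group means with correlations of 0.63, -0.15, 0.87 and 0.33, so not every number paired its samples, and a replicate block gave 723 and 833 at those thresholds and 0 at an adjusted p under 0.05. Of the alternative log2 differences of the named genes, 1378 moved by less than the spread between replicates and 8 by more. Non-overlapping genes keep their sign by construction when libraries are left out. The cause of these shifts was not tested. The unknown depth limits statements on low genes such as H2AC20 and KRT7.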
